A study of Mus musculus with 157 samples.

Results

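The genes described here are the protein-coding genes of mouse chromosome 4 that were expressed in a series of thymic lymphomas, followed in tumours that carried the label p53(+/D) and in tumours that did not. A gene was included when its mean level was 1 CPM (counts scaled to a common library size) or more over the 76 libraries of the later of 2 sequencing runs. Cdc20, Lck, Cdkn2a, Cdkn2b, Cdkn2c and the ribosomal protein genes were left out. This gave 685 genes of the 1324 protein-coding genes of chromosome 4 in the table, which held 50686 genes in all. Of the rest, 630 lay under the threshold and 9 above it were left out by name. Just outside the threshold were Penk at 0.887 CPM and Plag1 at 0.979 CPM, and just inside were Rnf11 at 1.01 CPM and Srsf12 at 1.02 CPM. The genes spanned positions 3549041 to 156247616 of chromosome 4 in GRCm38, with 353 on the plus strand and 332 on the minus strand. The exons of 205 of them overlapped another annotated gene, and reads from such pairs cannot be assigned with certainty because the strandedness of the counting is not given in the sources used here.

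The study compared mice labelled Cdc20(+/D) with mice labelled Cdc20(D/AAA), the genotype it calls aneuploid. The Cdc20 protein activates the anaphase-promoting complex. The later run held whole thymus of RERT2-Cdc20(+/D) mice (n = 6, the reference for all ratios) and of RERT2-Cdc20(D/AAA) mice (n = 9), the same genotypes with MYCChr6 (n = 2 and 3), and thymic lymphomas. The lymphomas came from RERT2-Cdc20(D/AAA) mice (n = 22, called D/AAA tumours here), from RERT2-Cdc20(D/AAA) mice with p53(+/D) (n = 10, called p53(+/D) tumours), from RERT2-Cdc20(D/AAA) mice with MYCChr6 (n = 3), from LCK-Cdc20(+/D) (n = 4), LCK-Cdc20(D/AAA) (n = 14) and CD4-Cdc20(D/AAA) (n = 2) mice with MYCChr6, and from 1 p53(-/-) mouse. All p53(+/D) tumours and the D/AAA tumours thus shared the RERT2 and D/AAA labels and differed by the p53 label. The earlier run added sorted thymocytes at the double positive stage (DP) from RERT2 +/D (n = 7) and D/AAA (n = 11) mice, and early tumours of RERT2 D/AAA mice sorted as DP (n = 5) or not sorted (n = 7). The labels do not spell out the RERT2, LCK and CD4 prefixes or the D alleles, and give no age. Whether the libraries of a group came from different mice is not stated either, so the p-values below measure the spread between these libraries, which may be technical.

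Mouse chromosome 4 carries many genes of cell division, RNA processing and mitochondrial metabolism, a cluster of TNF receptor genes near its distal end, and several regulators of T cell development. Cells with an additional copy of a chromosome generally transcribe most of its genes in proportion to the copy number. The p53 protein, encoded by Trp53 on chromosome 11, is a transcription factor that arrests or kills cells after DNA damage or faulty chromosome segregation, and its loss is a common route to thymic lymphoma in mice.

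Because the genes span a whole chromosome, their promoters were compared before their levels. RefSeq promoter windows on GRCm38.p6 (250 bases before to 50 after the start) were matched for 555 of the 685 genes. Their median GC content was 61.3%, against 61.0% in 8135 matched genes of the other autosomes. A match to the p53 decamer consensus, searched on both strands, was found in 37 windows (6.67%), against 6.32% in the other autosomes and 8.36% of all 32851 windows of the table. The E-box CACGTG, which reads the same on both strands and can be bound by MYC, was found in 59 windows (10.6%), against 10.3% in the other autosomes and 7.15% of all windows. The 250 bases before the start of 5 genes are shown. Ddost (chr4:138304488-138304737, plus strand), which encodes a subunit of the oligosaccharyltransferase, and Exosc10 (chr4:148558169-148558418, plus strand), a catalytic subunit of the nuclear exosome, hold a p53 decamer and were higher in p53(+/D) tumours. Zc3h12a (chr4:125127882-125128131, minus strand), an RNase that degrades immune transcripts, holds one and was the single gene of the 37 that was lower. Mrpl20 (chr4:155802628-155802877, plus strand), a mitochondrial ribosomal protein, holds an E-box, and Nudc (chr4:133546028-133546277, minus strand), a dynein-associated protein needed in mitosis, holds neither. Both were higher. Capitals mark the decamer or the E-box.
Ddost: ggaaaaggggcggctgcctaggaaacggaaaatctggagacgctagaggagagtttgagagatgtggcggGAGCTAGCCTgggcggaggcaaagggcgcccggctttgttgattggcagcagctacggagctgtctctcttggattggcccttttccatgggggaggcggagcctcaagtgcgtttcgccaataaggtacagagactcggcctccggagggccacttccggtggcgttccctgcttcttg
Exosc10: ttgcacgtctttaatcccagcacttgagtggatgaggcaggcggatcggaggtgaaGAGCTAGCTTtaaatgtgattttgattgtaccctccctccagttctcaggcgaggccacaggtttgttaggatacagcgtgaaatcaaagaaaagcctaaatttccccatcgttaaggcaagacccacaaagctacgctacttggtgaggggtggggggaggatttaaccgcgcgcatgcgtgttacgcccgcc
Zc3h12a: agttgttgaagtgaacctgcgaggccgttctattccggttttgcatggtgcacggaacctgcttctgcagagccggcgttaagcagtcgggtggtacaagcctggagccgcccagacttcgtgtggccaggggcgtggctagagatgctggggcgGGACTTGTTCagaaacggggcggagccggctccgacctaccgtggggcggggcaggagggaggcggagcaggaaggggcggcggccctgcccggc
Nudc: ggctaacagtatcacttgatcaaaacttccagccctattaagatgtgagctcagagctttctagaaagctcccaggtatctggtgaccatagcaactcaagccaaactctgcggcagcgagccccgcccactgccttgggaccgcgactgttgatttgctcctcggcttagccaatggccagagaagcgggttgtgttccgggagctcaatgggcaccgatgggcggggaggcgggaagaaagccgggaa
Mrpl20: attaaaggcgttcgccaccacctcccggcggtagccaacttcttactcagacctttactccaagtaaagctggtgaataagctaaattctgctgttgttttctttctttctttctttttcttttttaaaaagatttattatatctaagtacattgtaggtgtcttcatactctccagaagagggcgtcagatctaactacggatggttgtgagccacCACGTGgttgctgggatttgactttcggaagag
Genes were then split by these letters. The median difference between p53(+/D) and D/AAA tumours, defined below, was 0.44 on the log2 scale for the 37 genes with a decamer and 0.28 for the 518 without, and 97.3% and 81.1% of them were higher. It was 0.30 for the 59 genes with an E-box and 0.29 for the 496 without. In the other autosomes the medians were -0.01 with a decamer and 0.01 without. Split into 3 equal sets by the number of CpG dinucleotides, the chromosome 4 promoters had medians of 0.28, 0.30 and 0.30. These are descriptions of letters in short windows and carry no test.

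Total counts ran from 1708619 to 8009572 per library in the later run and from 21199 to 11595463 in the earlier one. Trp53, the gene named in the p53 labels, was at 7.56 to 27.5 CPM in the p53(+/D) tumours, at 17.8 CPM in the p53(-/-) tumour and at 31.6 to 267 CPM in the D/AAA tumours. The 9 thymocyte markers summed to 2110 to 3336 CPM in p53(+/D) tumours, 1817 to 4239 in D/AAA tumours, 211 to 3197 in LCK D/AAA MYCChr6 tumours and 6347 to 7279 in +/D thymus, and none of them was at 0 throughout any of these 4 groups. Macrophage markers (7 genes) summed to medians of 72.3, 84.0, 330 and 32.8 CPM in the same order, and B cell markers (6 genes) to 85.2, 93.4, 519.5 and 264 CPM. A single gene, CT010467.1, took a median of 37.1% of counts in p53(+/D) tumours, 40.3% in D/AAA tumours and 47.9% in +/D thymus. The part of other cell types and of that gene's share in the differences below was not tested, and in bulk RNA a smaller number of cells of a type cannot be told apart from less RNA per cell.

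Chromosome 4 transcripts stood above the median of the other autosomes in most p53(+/D) tumours and in a minority of D/AAA tumours. Chromosomes 12, 14 and 15 had higher means than chromosome 4 in the p53(+/D) tumours. In all LCK D/AAA MYCChr6 tumours chromosome 4 transcripts stood below that median, although chromosomes 1, 2 and 11 had lower means there. For each library, the log2 ratio of each gene to the mean of +/D thymus (log2 CPM with a prior count of 2) was taken, and the median over the 685 genes minus the median over 10319 genes of the other autosomes is called the chromosome 4 score. A chromosome transcribed 1.5-fold more would have a score near 0.58, and the point midway to it, 0.29, was used for counting. The rule that picked these genes was written around these ratios, so the scores are given as descriptions, with no test.

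The scores of p53(+/D) tumours 1 to 10 were -0.03, 0.32, 0.37, 0.37, 0.14, 0.32, 0.32, 0.33, 0.34 and 0.49, a mean of 0.30 ± 0.14 (SD, n = 10). Of the 10, 8 lay above 0.29 and 9 above the highest +/D thymus library (0.03). Tumour 1 lay within the thymus range, and tumour 5, at 0.14, was also the library with the lowest total (1708619). In the other 9 tumours 53.9% to 65.8% of the chromosome 4 genes were above the +/D thymus mean, against 48.8% in tumour 1. Over only the genes with no exon overlap, the mean score of the p53(+/D) tumours was 0.368.

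The 22 D/AAA tumours had a lowest score of -0.14, a median of -0.04 and a highest of 0.40, with a mean of 0.04 ± 0.17 (SD), which was 0.0955 over the genes with no exon overlap. Tumours 1, 2 and 4 scored 0.33, 0.35 and 0.40, as high as the p53(+/D) tumours. Tumours 12, 19, 17 and 20 lay between, at 0.26, 0.22, 0.11 and 0.06. Of the other D/AAA tumours, 13 were below the lowest thymus library (-0.04), so the group was spread from below thymus to the level of most p53(+/D) tumours, and the 2 groups overlapped. Trp53 was at 41.6 CPM in D/AAA tumour 2 and at 31.6 CPM in tumour 4, under all other D/AAA tumours (93.5 to 267 CPM), whereas tumour 1 had 123 CPM.

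**Figure D1:**
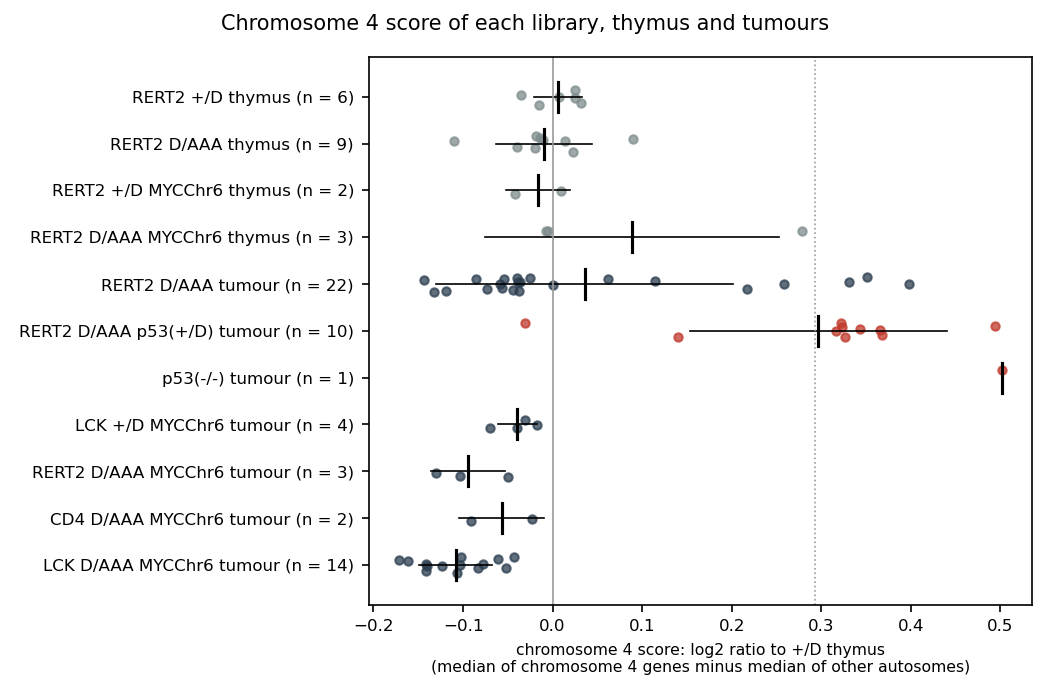
Chromosome 4 score of each library of the later run by group, as a log2 ratio to +/D thymus with the other autosomes subtracted. Points are libraries, vertical bars group means, horizontal lines 1 SD and the dotted line 0.29; 8 of 10 p53(+/D) tumours and 3 of 22 D/AAA tumours lie to its right.

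The p53(-/-) tumour scored 0.50, the highest of the run. The 14 LCK D/AAA MYCChr6 tumours scored -0.17 to -0.04 with a mean of -0.11 ± 0.04 (SD), all below the thymus range. Over the genes with no exon overlap their mean was -0.0697. In the same tumours chromosomes 2 (-0.18), 1 (-0.14) and 11 (-0.13) had lower means than chromosome 4, and chromosome 15 had the highest (0.50). The LCK +/D MYCChr6 tumours lay at -0.04 ± 0.02 (n = 4), the RERT2 D/AAA MYCChr6 tumours at -0.09 ± 0.04 (n = 3) and the CD4 D/AAA MYCChr6 tumours at -0.09 and -0.02. None of the 23 tumours with MYCChr6 scored above the +/D thymus range.

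Non-tumoral thymus scored -0.01 ± 0.05 in D/AAA mice (n = 9) and 0.01 ± 0.03 in +/D mice (n = 6, the reference itself). Of the 3 D/AAA MYCChr6 thymus libraries, replicate 1 scored 0.28 and the others -0.00 and -0.01. That library also had the lowest Trp53 level of the thymus libraries, 40.4 CPM. In p53(+/D) tumour 1, which scored -0.03, Trp53 was at 26.1 CPM. A relation between the Trp53 level and the score was not tested.

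Compared with other chromosomes, chromosome 4 had the largest mean difference between p53(+/D) and D/AAA tumours of the 19 autosomes, 0.26. Chromosomes 11 (0.21), 5 (0.19), 14 (0.13) and 12 (0.12) followed, and chromosome 18 was lowest at -0.12. Chromosomes 14 and 15 stood high in both groups (0.60 and 0.46 for 14, 0.57 and 0.56 for 15). Chromosome 12 was at 0.33 and 0.22, with 5 p53(+/D) and 9 D/AAA tumours above 0.29. In p53(+/D) tumours these chromosomes stood above chromosome 4 (0.30). Chromosome 11 had 5 of 10 p53(+/D) tumours above 0.29. In the p53(-/-) tumour chromosomes 15 (0.56) and 5 (0.54) stood above chromosome 4 (0.50). The p53(+/D) and D/AAA groups were set against the same thymus libraries. The difference between the groups for chromosome 4 was 0.26 with centring and 0.25 without it.

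By position, the excess of p53(+/D) over D/AAA tumours was seen along most of the chromosome. The genes were cut into 12 blocks of 57 or 58 neighbours. In every block the p53(+/D) mean exceeded the D/AAA mean, by 0.12 (block 10, 135968224 to 141815976) to 0.42 (block 7, 119232915 to 126593903), with block 2 next at 0.37. In windows of 10 Mb the difference was positive in all 16, from 0.10 to 0.51, the highest being that of 20 genes from 31964097 to 35226175. In windows of 5 Mb it was positive in 30 of 32, and the lowest value was -0.12.

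Block 7 was the one in which all p53(+/D) tumours lay above 0.29, with values of 0.39 to 0.88 and a mean of 0.62 ± 0.17 (SD, n = 10). The D/AAA tumours ranged there from -0.15 to 0.92 with a mean of 0.20 ± 0.26 (n = 22), and the LCK D/AAA MYCChr6 tumours averaged -0.09. Tumour 1 of the p53(+/D) group, flat elsewhere, reached 0.55 in block 7 and 0.18 in block 6, with the other blocks at -0.25 to 0.04. Block 7 holds the mitotic gene Cdca8, the RNA-binding protein gene Ybx1, the spliceosome gene Sf3a3, the Argonaute genes Ago1 and Ago3 and the complex I gene Ndufs5. In p53(+/D) tumours 51 of its 57 genes were higher, as were 51 of 57 in block 9 and 53 of 57 in block 2. The share over all 685 genes was 82.3%.

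Other blocks were lower. Block 11 (141858142 to 152017680) had the lowest p53(+/D) mean, 0.11 ± 0.18, while the D/AAA mean there was -0.20 ± 0.21. Block 1, nearest the centromere, averaged 0.18 ± 0.17 and 0.01 ± 0.23. The p53(-/-) tumour went from 1.15 in block 7 to -0.17 in block 11, the widest range among the p53-labelled tumours.

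**Figure D2:**
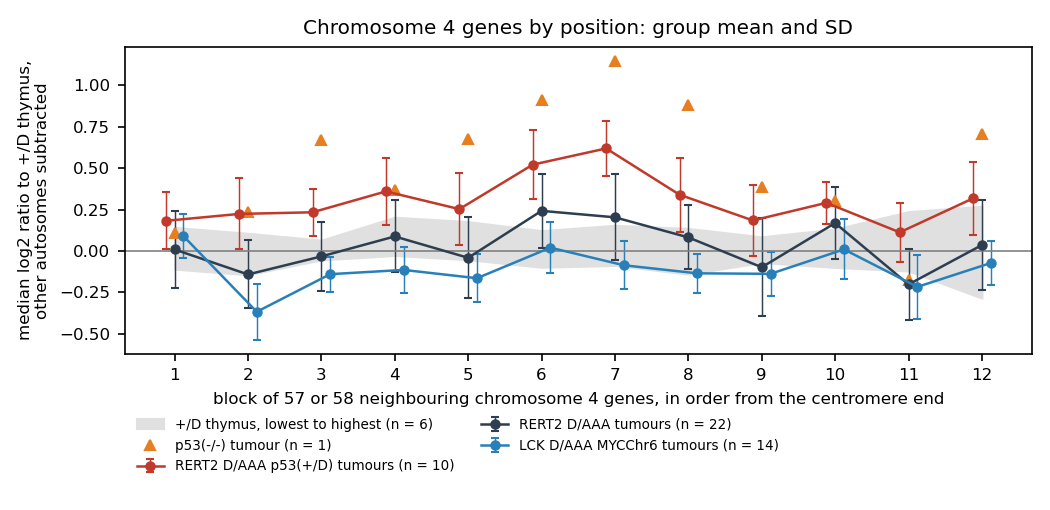
Mean and SD over tumours of the median log2 ratio to +/D thymus in 12 consecutive blocks of chromosome 4 genes, with the other autosomes subtracted; grey is the range of +/D thymus libraries, triangles are the p53(-/-) tumour and blue the LCK D/AAA MYCChr6 tumours. The p53(+/D) mean lies above the D/AAA mean in all 12 blocks and peaks in block 7 at 0.62.

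Single tumours differed in which blocks were high. All 12 blocks exceeded 0.29 in p53(+/D) tumour 10 (0.32 to 0.88), and 9 did in tumours 3 and 8. In tumour 7, block 1 was at -0.11 while blocks 6 to 8 were at 0.62, 0.86 and 0.74. Tumour 5 had 3 blocks above 0.29, namely 7, 10 and 12. Among D/AAA tumours, 1, 2 and 4 had all 12 blocks above 0. D/AAA tumour 12 was high in blocks 1 (0.62), 6 (0.60), 7 (0.55), 8 (0.51), 10 (0.45) and 12 (0.73) but at -0.26 in block 3 and -0.15 in block 4. D/AAA tumour 20 reached 0.86 in block 6 and was at -0.40 in block 9. High blocks were thus seen both in tumours with all 12 blocks above 0 and in tumours with most blocks near or under 0.

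**Figure D3:**
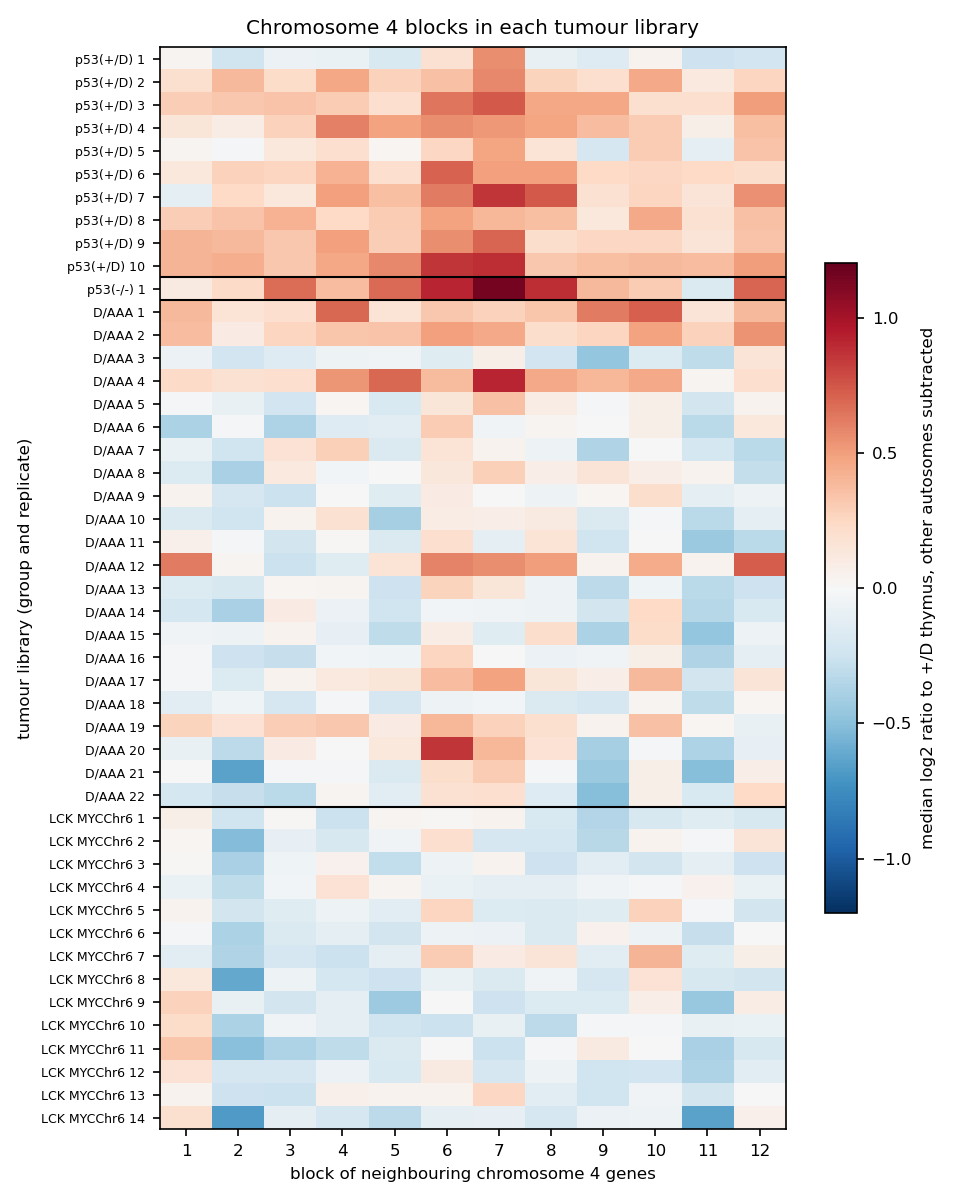
Median log2 ratio to +/D thymus in each block (columns) and tumour (rows), with the other autosomes subtracted; red is higher and blue lower, and black lines part the groups. All 12 blocks are above 0 in D/AAA tumours 1, 2 and 4 and in the p53(+/D) tumours other than 1, 5 and 7.

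At the level of single genes most of the 685 were higher in p53(+/D) tumours, by a small step. For each gene the mean log2 level in D/AAA tumours was subtracted from that in p53(+/D) tumours. The median over the 685 genes was 0.28 (quartiles 0.09 and 0.47), and 82.3% were higher in p53(+/D) tumours, while the 10319 genes of the other autosomes had a median of 0.00 (quartiles -0.22 and 0.23) and 50.1% higher. The share higher was 74.6% among genes at 1 to 10 CPM, 84.8% at 10 to 50 CPM and 91.4% at 50 CPM or more, against 52.6%, 49.7% and 45.5% in the other autosomes. The median was 0.29 for genes on the plus strand, 0.28 on the minus strand and 0.28 for the 480 genes with no overlapping exon.

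In 293 genes (42.8%) at least 8 of the 10 p53(+/D) tumours exceeded the median of the D/AAA tumours, against 15.4% of genes in the other autosomes. For 30 genes (4.38%) at most 2 did, against 16.2% elsewhere. No chromosome 4 gene had all p53(+/D) tumours above, or all below, all D/AAA tumours. Of the 10319 genes of the other autosomes 0 lay above and 1 below. In edgeR's quasi-likelihood fit of these 2 groups, 639 of the 685 genes passed the low-count filter, 28 were called higher and 0 lower at an adjusted p under 0.05. The share called among all genes fitted was 0.742% higher and 0.55% lower. The contrast chose the genes, and nothing is read from this count.

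3 of the genes called in that contrast are given in full. Nudc (133532542 to 133545996) had a lowest, median and highest level of 147, 252 and 280.0 CPM in p53(+/D) tumours, 83.3, 153 and 223.5 CPM in D/AAA tumours and 46.8, 57.2 and 70.2 CPM in +/D thymus. Its difference was 0.57 ± 0.13 (SE), with 9 of 10 p53(+/D) tumours above the D/AAA median. The groups overlapped, and both stood above thymus. Mrpl20 (155802878 to 155809975) had 55.9, 76.3 and 95.6 CPM in p53(+/D) tumours and 27.0, 50.6 and 85.3 CPM in D/AAA tumours, a difference of 0.59 ± 0.11, with all 10 tumours above the D/AAA median. Uqcrh (116066965 to 116075071), a subunit of respiratory complex III, had 162, 234 and 274 CPM against 118, 158.5 and 231 CPM, a difference of 0.50 ± 0.09. They lie in blocks 9, 12 and 6. They were picked from the genes called in this contrast, so nothing is read from the similar size of their differences.

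Larger differences had larger errors. By the rule for named genes, the 10 largest and 10 smallest differences were taken among the genes at 10 CPM or more. Dnajc6 (101496648 to 101642799), which encodes the clathrin-uncoating cofactor auxilin, led the upper end at 2.89 ± 0.75. It had a lowest, median and highest level of 5.91, 52.3 and 99.1 CPM in p53(+/D) tumours and 0, 7.08 and 109.7 CPM in D/AAA tumours, against a thymus mean of 119.7 CPM. Scmh1, a Polycomb group gene, followed at 2.02 ± 0.52, with medians of 15.6 and 5.19 CPM and a thymus mean of 37.0 CPM. Dhrs3, a retinal reductase, differed by 1.93 ± 0.54, with medians of 13.98 and 2.57 CPM and a thymus mean of 43.6 CPM. The medians of these 3 genes were below thymus in both tumour groups and nearer to it in the p53(+/D) tumours.

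Alpl (1.43 ± 0.60), a phosphatase, was at 0 in all 6 +/D thymus libraries. The cell polarity gene Patj differed by 1.42 ± 0.56, Ubxn11 by 1.21 ± 0.34, Tprgl by 1.2 ± 0.25, the AP-1 factor Jun by 1.15 ± 0.82, Hint2 by 1.03 ± 0.24 and the mitotic kinase gene Melk by 0.93 ± 0.20. For Jun the groups covered nearly the same range: p53(+/D) tumours ranged from 0 to 78.7 CPM and D/AAA tumours from 0 to 68.2 CPM. Melk had 10.04, 21.7 and 30.4 CPM in p53(+/D) tumours, 3.32, 10.95 and 20.3 CPM in D/AAA tumours and a thymus mean of 4.90 CPM. Exons of Ubxn11 overlap Sh3bgrl3 and those of Jun overlap Junos.

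A minority of genes went the other way. Tnfrsf14 (154921933 to 154928563), the HVEM receptor, had 3.94, 8.78 and 24.3 CPM in p53(+/D) tumours, 8.51, 17.7 and 41.1 CPM in D/AAA tumours and 42.0, 73.7 and 94.7 CPM in +/D thymus, a difference of -0.81 ± 0.27. It lies in block 12, where 44 of 57 genes were higher. Tox, a nuclear factor of T cell development whose exons overlap Gm11802, had medians of 11.98 and 37.5 CPM, with 2 of 10 p53(+/D) tumours above the D/AAA median and a difference of -0.62 ± 0.55. The others were Glipr2 (-0.54), Slc35d1 (-0.51), Stx17 (-0.48), Zfp362 (-0.47), Tmem268 (-0.46), Zbtb17 (-0.45) and Pde4b (-0.37). These 9 genes lie in 7 of the 12 blocks.

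Genes were also grouped by function. All 14 members of the ubiquitin, proteasome and chaperone group were higher in p53(+/D) tumours, with a median of 0.25, as were 29 of 30 RNA processing genes (0.27) and 26 of 28 replication, repair and mitosis genes (0.21). The same measures over all 685 genes were 82.3% and 0.28.

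In the ubiquitin group the proteasome subunit gene Psmb2 had 105, 169 and 211 CPM in p53(+/D) tumours and 90.3, 121 and 180 CPM in D/AAA tumours (0.45 ± 0.11), and Vcp, a segregase, differed by 0.29 ± 0.09. Among RNA processing genes, Ybx1 differed by 0.76 ± 0.23, the exosome subunits Exosc3 and Exosc10 by 0.50 ± 0.13 and 0.35 ± 0.08, and the translation initiation factor Eif3i by 0.43 ± 0.11. The one lower was Zcchc7 (-0.08 ± 0.17). In the mitosis group, Cdca8, a chromosomal passenger protein, had 75.5, 128 and 170 CPM against 59.8, 88.3 and 119 CPM (0.49 ± 0.12). Mad2l2, a repair and checkpoint adaptor, differed by 0.54 ± 0.14 and the nucleotide excision repair gene Rad23b by 0.72 ± 0.15, both with all 10 tumours above the D/AAA median. The 2 lower genes were Nbn (-0.23 ± 0.25) and Mutyh (-0.18 ± 0.41).

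Metabolic and mitochondrial genes had a median of 0.40, with 22 higher and 5 lower of 27. The complex I genes Ndufs5 (0.69 ± 0.15) and Ndufb6 (0.41 ± 0.13), the succinate dehydrogenase gene Sdhb (0.42 ± 0.11), the peroxiredoxin gene Prdx1 (0.42 ± 0.14) and the oxidative stress gene Park7 (0.53 ± 0.11) were among the higher. Glycolytic Eno1 was not (-0.09 ± 0.23), with 184 to 796 CPM in p53(+/D) and 186 to 609 CPM in D/AAA tumours. Srm, the spermidine synthase gene, was the one of this group furthest above thymus in p53(+/D) tumours, by 3.31 on the log2 scale, and by 2.88 in D/AAA and 3.81 in LCK D/AAA MYCChr6 tumours.

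Lymphoid regulators varied more. Of 24, 18 were higher and 6 lower, with a median of 0.31. Jak1, a cytokine receptor kinase, differed by 0.32 ± 0.17 and the B cell co-receptor gene Cd72, whose exons overlap Tesk1, by 1.195 ± 0.32, while Laptm5, a lysosomal regulator of receptor levels, differed by -0.14 ± 0.18. Relative to +/D thymus the median of this group was -0.55 in p53(+/D) and -0.84 in D/AAA tumours. The 8 TNF receptor and ligand genes had a median of 0.41, with 5 higher and 3 lower, and medians of -1.12 and -1.66 against thymus. Over the 5 of these 8 that edgeR fitted, the median between the 2 tumour groups was -0.03. Of the 5 higher, Tnfsf8, Tnfrsf25, Tnfrsf4 and Tnfrsf9 had low p53(+/D) means of 0.87, 1.57, 1.97 and 3.3 CPM. The fifth, Tnfrsf18, differed by 0.25 ± 0.31. The 3 lower were Tnfrsf1b (-0.01), Tnfrsf8 (-0.02) and Tnfrsf14 (-0.81). Chromatin and growth control genes had 20 of 25 higher (0.32), among them Dmap1, a partner of the DNA methyltransferase Dnmt1 (0.63 ± 0.11), and 5 lower, among them Rere (-0.34 ± 0.29) and Prdm2 (-0.28 ± 0.16). Signalling and cytoskeleton genes had 10 of 15 higher, with a median of 0.13.

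The 7 p53 target genes had a median of 0.17, with 6 higher and 1 lower (the caspase gene Casp9, -0.03). Over the 6 of these 7 that edgeR fitted, the median fold change was -0.13 on the log2 scale, so the sign depended on the measure. Several of the differences were within their SE. Epha2, at means of 0.27 and 0.39 CPM, differed by 0.05 ± 0.29. Aldh4a1 differed by 0.19 ± 0.34, with 2 of 10 p53(+/D) tumours above the D/AAA median. Trp53inp1, a stress-induced mediator of p53, had 63.7, 105 and 142 CPM in p53(+/D) tumours and 36.7, 84.7 and 295 CPM in D/AAA tumours, a difference of 0.13 ± 0.22. In +/D thymus it had 256, 286 and 372 CPM, above all p53(+/D) tumours and overlapping the highest D/AAA tumour.

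**Figure D4:**
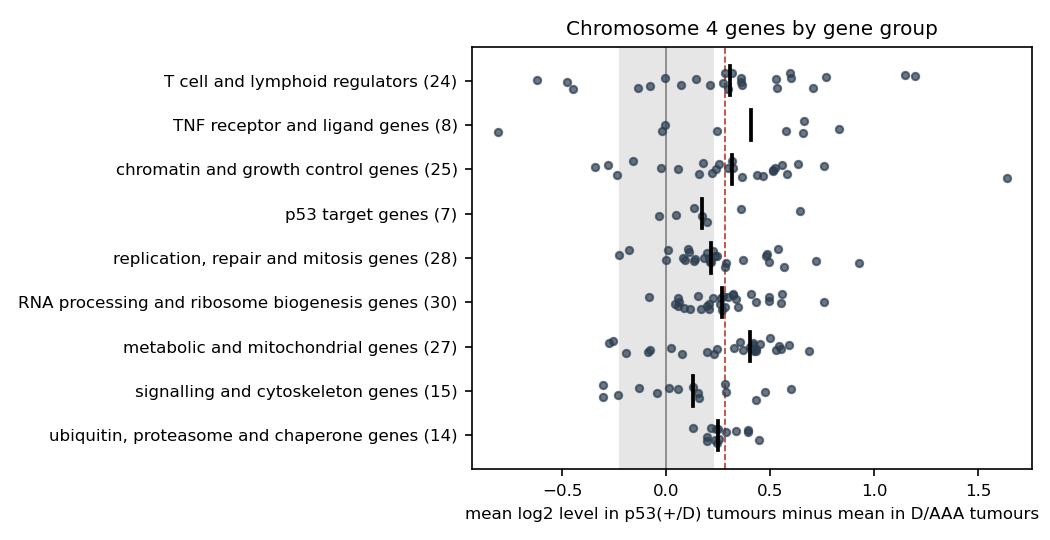
Difference in mean log2 level between p53(+/D) and D/AAA tumours for chromosome 4 genes by functional group; points are genes and black bars group medians. The grey band holds the middle of the other autosomes (quartiles -0.22 and 0.23), and the dashed red line is the median of all 685 genes, 0.28.

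Against +/D thymus, which the tumour groups share as reference and which the rule also used, chromosome 4 genes moved in both directions. In p53(+/D) tumours 218 of 643 fitted genes were called higher and 113 lower by edgeR, where 23% and 22.6% of all fitted genes were. In D/AAA tumours 170 of 662 were called higher and 139 lower (22.4% and 19.1% of all). In LCK D/AAA MYCChr6 tumours 139 of 647 were called higher and 155 lower (25.1% and 19.8% of all). These counts are descriptions.

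The remaining comparisons were tested across all genes. Those within the later run used libraries whose levels set the threshold and whose ratios to +/D thymus the rule was written around. They are therefore not independent of the choice of the genes. The threshold and those ratios used no library of the earlier run. The question was whether the Cdc20 genotype by itself shifted chromosome 4 genes. In non-tumoral thymus, D/AAA (n = 9) against +/D (n = 6), 621 of the 685 genes passed the low-count filter, and edgeR called 0 of them higher and 0 lower, as it did over all genes (0% and 0%). Unadjusted edgeR p was under 0.05 for 63 of them, and for 907 of all 11044 genes fitted. Of the chromosome 4 genes DESeq2 called 2 and limma voom 0. The median difference was 0.00, against 0.02 over all genes. Nudc differed by 0.35 ± 0.23 (edgeR adjusted p = 0.704).

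Between LCK D/AAA (n = 14) and LCK +/D (n = 4) MYCChr6 tumours edgeR called 0 of 656 genes in either direction (0% and 0% over all genes). Its unadjusted p was under 0.05 for 31 of them, and for 653 of all 12791 genes fitted. DESeq2 and limma voom called 0 of the chromosome 4 genes. The median difference was -0.06, against 0.02 over all genes. In sorted DP cells, D/AAA (n = 11) against +/D (n = 7), edgeR called 0 of 637 (0% higher and 0.00803% lower over all genes). Its unadjusted p was under 0.05 for 64 of them, and for 1325 of all 12451 genes fitted. Of the chromosome 4 genes DESeq2 called 4 and limma voom 0. The median difference was 0.03, against 0.05 over all genes. A miss of the threshold does not show that the genotypes had the same levels.

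In the earlier run, chromosome 4 transcripts stood higher in 3 of 5 sorted DP early tumours. Scores were taken as before over 670 of the 685 genes with a mean of 1 CPM or more in that run, with +/D DP cells as reference (-0.04 to 0.04). The early tumours 1 to 5 sorted as DP scored -0.00, 0.29, -0.09, 0.22 and 0.41. Of the 11 D/AAA DP libraries, 10 lay between -0.08 and 0.04 and replicate 5 at 0.20. Tumours 2 and 5 had all 12 blocks above 0, tumour 4 had 9, and replicate 5 of the D/AAA DP cells had all 12, whereas the unsorted early tumours scored -0.08 to 0.10.

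**Figure D5:**
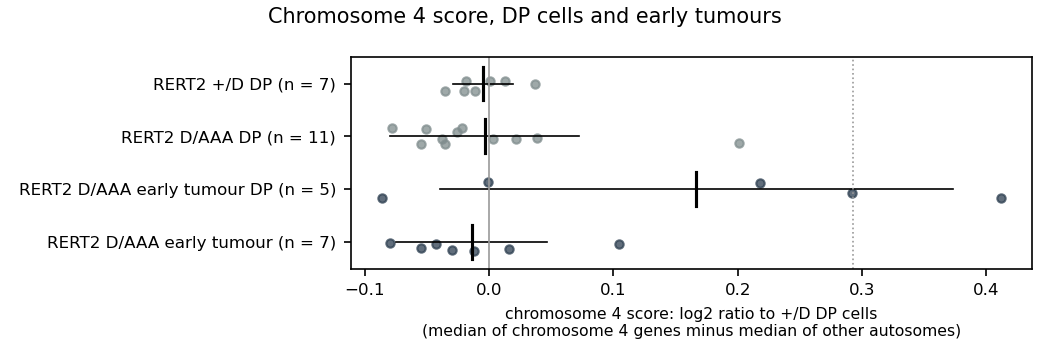
Chromosome 4 score of DP cells and early tumours of the earlier run, as a log2 ratio to +/D DP cells with the other autosomes subtracted. Points are libraries, vertical bars means, horizontal lines 1 SD and the dotted line 0.29. DP early tumours 2, 4 and 5 (0.29, 0.22 and 0.41) and 1 D/AAA DP library (0.20) score 0.20 or more. Only tumour 5 lies to the right of the dotted line, with tumour 2 at 0.2915 just under its exact value of 0.2925.

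None of these early tumours carried a p53 label. Chromosomes 14 and 15 were higher still in the DP early tumours, at means of 0.44 and 0.67, against 0.17 for chromosome 4, and tumours 2 to 5 were all above 0.29 for both. Tumour 3, at 0.67 and 0.98 for these chromosomes, had the lowest chromosome 4 score of the 5, under the +/D DP range, with 4 of 12 blocks above 0. Chromosomes 1 and 2 were near chromosome 4, with means of 0.16 and 0.13. In tumours 2, 4 and 5 chromosome 1 was at 0.32, 0.18 and 0.32 and chromosome 2 at 0.26, 0.13 and 0.38, so these chromosomes were high in the same tumours as chromosome 4. Thymocyte markers summed to 3566 to 12380 CPM in the DP early tumours and 6155 to 12760 CPM in D/AAA DP cells, and their part in the scores was not tested.

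By gene, edgeR called 0 of 643 chromosome 4 genes higher and 0 lower in DP early tumours (n = 5) against D/AAA DP cells (n = 11), as over all genes (0% and 0%). Unadjusted edgeR p was under 0.05 for 152 of them, and for 2719 of all 12245 genes fitted. The call depended on the tool and on 1 tumour: DESeq2 called 51 genes (43 higher), limma voom 132 (105 higher), and edgeR without tumour 1 called 92 (70 higher). The shares called over all genes in these fits are not given here, so nothing is read from these counts or their directions. The median difference was 0.15, against -0.07 over all genes, and 61.6% of the chromosome 4 genes were higher, against 45.6% of all.

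The medians over the functional groups are given with no test. The replication, repair and mitosis group had a median of 0.67, the metabolic group 0.45 and the RNA processing group 0.44, while the lymphoid regulators were at 0.07 and the p53 targets at -0.17. Nudc had 187, 286, 479, 474 and 312 CPM in the DP early tumours 1 to 5 and a lowest, median and highest level of 94.1, 160 and 445 CPM in D/AAA DP cells. All 5 tumours were above the D/AAA DP median, and the groups overlapped (0.92 ± 0.29, edgeR adjusted p = 0.104). Psmb2 had 410, 432, 814, 699 and 405 CPM against 142, 269 and 651 CPM (1.02 ± 0.29, edgeR adjusted p = 0.0894). Tumour 3, with the lowest chromosome 4 score of the 5, had the highest level of both genes.

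Unsorted early tumours (n = 7) differed from D/AAA DP cells (n = 11) in many chromosome 4 genes, in both directions. By edgeR 112 of 637 genes were higher (17.6%) and 84 lower (13.2%), close to the shares over all genes, 15.9% and 13.2%. Limma voom called 147 higher and 164 lower, and its shares over all genes are not given here. The median difference was -0.02, against -0.01 over all genes. This comparison also differs by sorting. Thymocyte markers summed to 1480 to 2842 CPM in the unsorted tumours against 6155 to 12760 CPM in D/AAA DP cells, dendritic cell markers had medians of 5141 and 42.2 CPM, macrophage markers 478 and 7.61 CPM, and B cell markers 2116 and 915 CPM. The part of these cells was not tested.

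The gene with the largest rise was Lyn, a Src family kinase of B and myeloid cells whose exons overlap Gm26857. It had a lowest, median and highest level of 4.21, 54.8 and 92.5 CPM in the unsorted tumours and 0, 0.129 and 1.57 CPM in D/AAA DP cells (7.53 ± 0.78, edgeR adjusted p = 1.44e-06). Coro2a, a coronin, rose by 6.90 ± 0.61 (edgeR adjusted p = 3.2e-07), and for both genes the groups did not overlap. Ttc39b (5.96), the small GTPase gene Gem (5.12) and Crybg2 (4.58), whose exons overlap Cd52, followed. Over all genes edgeR called 15.9% higher and 13.2% lower, and the functional groups were not tested against these shares. Of the 8 TNF receptor and ligand genes 4 rose (Tnfsf8, Tnfrsf1b, Tnfrsf9 and Tnfrsf18) and 0 fell. Of 22 lymphoid regulators fitted 10 rose, among them Pik3cd, a phosphoinositide kinase (2.12 ± 0.33, edgeR adjusted p = 8.02e-05), and Runx3 (3.45 ± 0.46, edgeR adjusted p = 1.92e-05), and 4 fell, among them Id3 (-1.53 ± 0.36, edgeR adjusted p = 0.00276) and Tox (-1.21 ± 0.38, edgeR adjusted p = 0.0191).

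The genes that fell most were Cfap74 (-4.95), the relaxin-family hormone gene Insl5 (-4.90), the collagen gene Col27a1 (-4.70), Dhrs3 (-4.62) and Tctex1d1 (-4.38). Dhrs3 had 0.258, 4.26 and 5.65 CPM against 28.2, 87.8 and 168 CPM in D/AAA DP cells (edgeR adjusted p = 7.1e-07). Of 25 chromatin and growth control genes 7 fell (Arid1a, Psip1, Hdac1, Gmeb1, Dffa, Spen and Zmym1) and 4 rose (Mllt3, Ski, Chd7 and Mtap). Of 27 metabolic genes 6 rose (Srm, Pgm1, Slc2a1, Ddost, Acot7 and Eno1) and 1 fell (Nmnat1). Both groups stand beside shares of 15.9% higher and 13.2% lower over all genes and were not tested against them. Nudc (0.23 ± 0.34, edgeR adjusted p = 0.648) and Park7 (0.21 ± 0.28, edgeR adjusted p = 0.62), both higher in p53(+/D) tumours, did not pass the test here.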

How the data were processed

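RNA-seq libraries of mouse thymus, sorted thymocytes and thymic lymphomas were used. The labels' protocols name the RNeasy Plus Mini Kit for RNA and the HiSeq2000 for sequencing, with sorted thymocytes or lymphoma cells that were unsorted unless stated. Per the submitters' processing notes, FastQC, STAR 2.5.3a, RSEM 1.3.0 and the builds GRCm38 and mm10 were used. The deposited values, 1 table per run, are expected counts per gene by the authors, all whole numbers. The authors' annotation release is not given in the sources used here, and names, types and positions were taken from GENCODE M21 (50376 of 50686 genes matched). No column lacked a sample, and no pair of replicate libraries was identical.

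Counts were scaled by TMM, and log2 CPM used a prior count of 2. Genes kept by filterByExpr entered a robust quasi-likelihood fit in edgeR 4.0.16 of the 2 groups compared, always within 1 run, with 2-sided p-values, Benjamini-Hochberg adjustment over all genes tested and a threshold of 0.05 (R 4.3.3). Errors of fold changes are SE, obtained as the log2 fold change over the root of the F statistic. Differences between p53(+/D) and D/AAA tumours in the text are means of log2 CPM with their SE, and errors of scores are SD. Scores and fits were tested on simulated data. Named genes were the 10 highest and 10 lowest differences at 10 CPM or more, up to 5 called genes per direction at 5 CPM or more in tested comparisons, the members of the functional lists, and the genes nearest the threshold. Identifier-only names were left out. 1 gene that the rule names is not reported here. Genes of the promoter set, Zc3h12a among them, were chosen after their values were seen. The members, lists and tests were chosen with earlier results of these data known. Alternatives were DESeq2 1.42.0, limma 3.58.1 voom with quality weights, no low-count filter, relative log expression factors, other score definitions, other window sizes, and leaving out libraries. Scripts ran in Python 3.11.15.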

Additional observations from a re-analysis of the deposited data

Results flagged for a closer look

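In 66 groups of 4 to 10 values (scores, blocks and Trp53 levels by group), 4 had a highest or lowest value whose gap to the next exceeded Dixon's 95% critical value, and chance flags about 1 in 20. The chromosome 4 score of sorted D/AAA DN1 cells had a lowest value of -0.364, that of the library with the lowest total of the run (21199 counts). In the p53(+/D) tumours, block 12 had a lowest value of -0.234, in tumour 1. In +/D thymus, the highest libraries stood apart at 0.204 in block 4 and 0.177 in block 5.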

How the results depend on the processing

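All 54 alternative values of the 4 group scores kept their sign and moved by less than 1 SD between tumours. The small D/AAA tumour score, 0.0358, nevertheless ranged from 0.0116 (trimmed mean) through 0.0561 (no centring) and 0.0757 (genes at 10 CPM or more) to 0.0955 (genes with no exon overlap), and the LCK D/AAA MYCChr6 score went from -0.108 to -0.0697 with the last of these. Of the counts, 40 of 50 alternatives stayed within 1.5 times, and the other 10 were increases. In D/AAA thymus, where edgeR called 0 genes, DESeq2 called 2 and the fit without a low-count filter 1. In DP early tumours, also 0 by edgeR, DESeq2 called 51, limma voom 132, the fit with no filter 3, and leaving out each tumour in turn gave 0 to 92, the 92 without tumour 1. Limma voom called 311 genes in unsorted early tumours against 196 by edgeR. DESeq2 called 4 genes in D/AAA DP cells against 0. Between p53(+/D) and D/AAA tumours DESeq2 called 45 and limma voom 77 against 28. In 5 Mb windows, 6.25% were lower in p53(+/D) than in D/AAA tumours, against 0% in 10 Mb windows. The causes were not tested, and the shares called over all genes with these alternatives are not given here. Leaving out p53(+/D) tumour 1 or D/AAA DP replicate 5 and using only genes with no exon overlap were chosen after seeing the data. Leaving out these libraries changed no score or count by over 1.5 times. Leaving out libraries under the run's median total divided by 3 changed nothing in these comparisons, which hold no such library. No paired analysis was possible because the labels carry no replicate numbers. The lowest total among the tumours of the later run was that of p53(+/D) tumour 5 (1708619 counts).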
